A study of Homo sapiens with 2 samples.

Results

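The cytosolic ribosomal protein genes were taken as the protein-coding genes with a symbol that starts with RPL or RPS followed by a digit, without the RPS6K kinases, together with RPLP0, RPLP1, RPLP2 and RPSA. The GENCODE annotation of hg38 holds 84 such genes among 19103 protein-coding gene symbols on the autosomes. Of these, 73 encode canonical ribosomal proteins (40 of the large subunit, 30 of the small subunit and 3 of the stalk). The symbol rule also took in 8 paralogs, the readthrough genes RPS10-NUDT3 and RPL17-C18orf32, and RPS19BP1, which encodes a protein that binds RPS19 and is not a ribosomal protein. Members on the X chromosome were outside the rule.

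The data are TCF3::HLF-HiChIP from HAL-01, a leukemia cell line that carries t(17;19) and expresses the TCF3::HLF fusion. The cells stably expressed Cas9GFP, and wild-type TCF3 had been knocked out with an sgRNA, so that an E2A (TCF3) antibody pulled down the fusion protein. HiChIP joins DNA ends that lie close together in the nucleus and keeps those bound by the protein of interest. The design held a single condition with 2 replicates, which the authors merged before interactions were called, so no value below has a replicate error, no groups could be compared and no test was run. All cells carried the knockout and came from a line expanded as a clone after transduction, and no line without the fusion was analysed here.

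The deposited list gives 49245 interactions between pairs of 5-kb bins, 50 kb to 3 Mb apart. For each it gives a contact count, which counts the read pairs with 1 end in each bin. The contact counts added up to 1268490, which covers listed interactions only. Copies of the same read pair had not been removed, so the Poisson 95% intervals given here count copies as separate read pairs and can be too narrow. The Wilson 95% intervals cover only the counting error of genes or of pairs of bins. A gene counted as having an interaction when either bin lay within 10 kb of one of its start sites, and 28144 interactions met this for some protein-coding gene. Interactions share bins and genes and are therefore not independent of each other.

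Cytosolic ribosomes translate messenger RNA in every cell. The small subunit decodes the message, the large subunit joins amino acids, and the stalk of the large subunit, formed by RPLP0, RPLP1 and RPLP2, recruits translation factors. Most of these genes are short and highly transcribed, many hold small nucleolar RNA (snoRNA) genes in their introns, and loss of 1 copy of several of them causes Diamond-Blackfan anemia, a failure of red cell formation. HLF binds DNA through a basic leucine zipper whose recognition site is close to a palindrome, and the fusion keeps this domain.

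HLF motifs were searched as exact TTACGTAA or TTATGTAA on both strands. In the 250 bases before to 50 bases after the annotated gene start, 2 of 84 members held a motif (2.38%, 0.655 to 8.27). The share over all protein-coding genes, 141 of 19103 (0.738%), lay inside this interval. Both members held the palindromic form TTACGTAA, which 24 of all 19103 promoters held (0.126%). The form TTATGTAA was held by 0 members and by 117 of all promoters (0.612%). With 2 members, a difference between the forms is not resolved. The 2 members were RPS3, which encodes a small-subunit protein at the messenger RNA entry channel, and RPL23, which encodes a large-subunit protein. Their promoters are printed 5′ to 3′ in the direction of the gene from hg38, with the motif in capitals, because in both the motif lay close to the start and the bin that held it took part in an interaction.
RPS3 promoter, chr11:75399353-75399480, plus strand: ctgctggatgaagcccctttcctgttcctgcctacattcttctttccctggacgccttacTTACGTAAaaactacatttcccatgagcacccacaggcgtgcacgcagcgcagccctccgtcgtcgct
RPL23 promoter, chr17:38853782-38853909, minus strand: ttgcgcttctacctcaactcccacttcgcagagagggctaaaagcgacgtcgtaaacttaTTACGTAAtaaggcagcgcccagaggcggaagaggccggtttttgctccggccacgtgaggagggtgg

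In RPS3 there were 94 bases between the motif and the gene start, and in RPL23 there were 77. No protein-coding gene was annotated over either motif. The RefSeq promoter table, on the same span, matched 65 member symbols with 80 promoters, of which 1 held a motif (1.25%), that of RPS3. Of the 20584 RefSeq promoters of autosomal protein-coding genes 0.806% did. The RPL23 start was in the bin chr17:38850001-38855000, which took part in 3 interactions, with contact counts of 34, 30 and 16. The RPS3 start was in the bin chr11:75395001-75400000, which took part in 1 interaction with a contact count of 15 (8.4 to 24.7) to a bin over MAP6, 190 kb downstream.

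Further motifs lay in the bins of other members. Those printed next are in bins that took part in at least 3 interactions, or that took part in an interaction and held a start site of a member. They are shown because these bins had the most interactions or held both a start site and a motif. Each has 20 bases on each side, on hg38, with the motif in capitals and on the plus strand or the minus strand as given with it.
RPL35A member bin, chr3:197961732-197961779, minus strand: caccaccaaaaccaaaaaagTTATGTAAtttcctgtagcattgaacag
RPSA member bin, chr3:39411782-39411829, minus strand: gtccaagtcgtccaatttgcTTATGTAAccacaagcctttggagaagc
RPS29 member bin, chr14:49596667-49596714, plus strand: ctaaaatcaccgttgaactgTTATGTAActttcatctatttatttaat
RPS19BP1 member bin, chr22:39527828-39527875, plus strand: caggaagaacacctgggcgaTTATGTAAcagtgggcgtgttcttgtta
RPL37A member bin, chr2:216535668-216535715, minus strand: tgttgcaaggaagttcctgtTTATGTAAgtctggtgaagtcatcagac
RPS25 member bin, chr11:119012894-119012941, plus strand: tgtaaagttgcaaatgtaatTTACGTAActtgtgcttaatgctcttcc
RPL4 member bin, chr15:66523329-66523376, plus strand: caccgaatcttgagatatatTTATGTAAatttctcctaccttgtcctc
RPL5 member bin, chr1:92844361-92844408, plus strand: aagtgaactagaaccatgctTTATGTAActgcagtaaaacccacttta

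Distances here are to the nearest start site of any transcript of the member, and the annotated gene start was farther from the motif in each. The annotated gene starts are at 66524532 for RPL4 and 39406716 for RPSA. The RPL4 motif was 55 bp from the nearest start site of RPL4, within an intron, and the RPSA motif was 999 bp from a start site, in an intron of RPSA. The RPS29 motif was 1989 bp away, in an intron of RPS29. The RPL5 motif was 3856 bp from a start site, in an intron of the neighboring gene DIPK1A and past the end of RPL5 at 92841924. The annotated gene start of RPL5 is at 92832013, and its bin held another motif, not printed here. The RPS19BP1 motif was intergenic, 4238 bp from a start site. The RPS25 site, the palindromic form, was in an exon of CENATAC, 5123 bp from an RPS25 start. In RPL37A the motif was in an intron, 6663 bp from a start site inside the gene, with the annotated gene start at 216498825. The RPL35A site was 8189 bp from an RPL35A start and in an intron of LMLN. A match to these letters describes the sequence and is no evidence of binding.

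Of the 84 members, 52 had at least 1 interaction (61.9%, 95% interval 51.2 to 71.6), compared with 10744 of the 19103 protein-coding genes (56.2%). The share among the members was close to this background, which lay inside its interval. At the share of each member's own chromosome, 46.5 of the 84 would have had an interaction. A bin that held a start site itself took part in an interaction for 24 members (28.6%, 20 to 39), and the background was 27.3%. At least 5 interactions were listed for 11 members (13.1%, 7.47 to 21.9), and the background was 14.1%. A partner bin with an HLF motif was listed for 37 members (44%, 33.9 to 54.7), and the background was 38.5%. These 4 backgrounds were within the members' intervals.

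**Figure D1:**
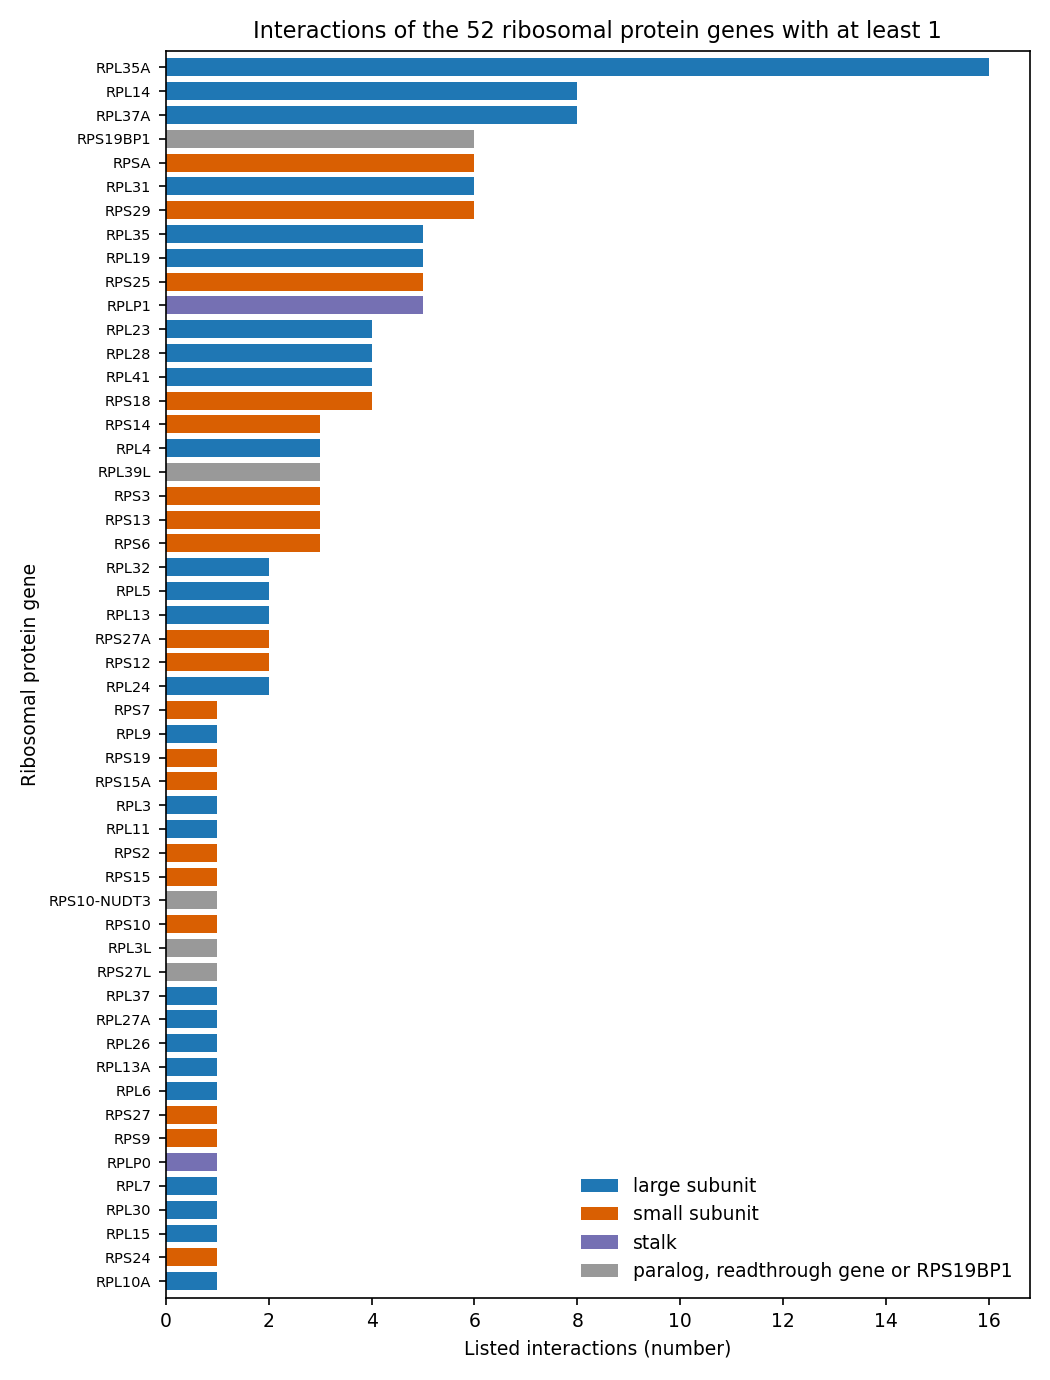
Number of listed interactions (horizontal axis) for each of the 52 ribosomal protein genes with at least 1, with the color giving the class of the encoded protein. RPL35A had 16, RPL14 and RPL37A had 8 each, and 25 genes had 1.

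Among the large-subunit genes 26 of 40 had an interaction (65%, 49.5 to 77.9), and among the small-subunit genes 19 of 30 did (63.3%, 45.5 to 78.1). The intervals overlapped nearly in full. Of the stalk genes, RPLP1 had 5 interactions with contact counts from 15 to 21, RPLP0 had 1 with a contact count of 17 (9.9 to 27.2), and RPLP2 had none. The RPLP1 partners were all 640 to 865 kb away, and 3 of the 5 lay in bins with no coding start within 10 kb. The RPLP0 partner lay 2288 bp from a start of CIT, and a start of PXN was closer to the RPLP0 bin than that of RPLP0 itself.

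Genes with a related function outside the cytosolic ribosome were counted in the same way. Of the mitochondrial ribosomal protein genes, 41 of 78 had an interaction (52.6%, 41.6 to 63.3), and of 30 other translation genes (initiation and elongation factors and the like) 15 did (50%, 33.2 to 66.8). The order of the 3 shares was cytosolic, mitochondrial, other, but neighbors in it differed by less than their counting error.

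Of the 16 members listed as Diamond-Blackfan anemia genes, 11 had an interaction (68.8%, 44.4 to 85.8, with 56.2% over all coding genes). They included RPS19, the gene most often mutated in this disease, with 1 interaction, RPL5 with 2, RPL11 with 1, RPL35 with 5, RPS29 with 6 and RPL35A with 16. RPL5 and RPL11 form a complex with the 5S ribosomal RNA. Those with none included RPS26, RPL27, RPS28 and RPL18. With the window widened to 20 kb, 15 of the 16 had an interaction (93.8%, 71.7 to 98.9), as did 66 of all 84 members (78.6%, 68.7 to 86.0) and 59 of the 73 canonical ones (80.8%, 70.3 to 88.2). The share of all protein-coding genes at 20 kb, 68.6%, lay below these 3 intervals, for all 84 members only just. The 3 sets are nested and so are not separate results. With the start inside the bin, at 5 kb and at 10 kb, the shares of all coding genes were 27.3%, 46.3% and 56.2%. Each of these lay inside the intervals of all 3 sets.

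Of the 8 paralogs, 3 had an interaction. RPL39L, a paralog of the X-linked RPL39, had 3 with contact counts of 38, 36 and 25, at 1140, 805 and 225 kb. All 3 were above the median of interactions near coding starts in the same distance class, which was 21 above 1 Mb, 22 between 500 and 1000 kb and 24 between 200 and 500 kb. The RPL39L bin of the interaction with 36 lay near a start site inside the gene, more than 10 kb from the annotated gene start. RPS27L had 1 with a contact count of 29 to a bin that held a start of USP3. RPL3L, a striated muscle paralog of RPL3, shared its 1 interaction with RPS2, since both start within 10 kb of the same bin. RPL7L1, RPL10L, RPL22L1, RPL26L1 and RPL36AL had none.

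Further members without an interaction included RPL7A, RPL12, RPL17 with its readthrough gene RPL17-C18orf32, RPL22, RPL29, RPL38, RPS3A, RPS16 and RPS21. Of the 12 members on the gene-dense chromosome 19, 5 had an interaction (41.7%, 19.3 to 68.0), and the share of all coding genes there was 40.5%. Outside chromosome 19 the shares were 47 of 72 members (65.3%, 53.8 to 75.2) and 57.6%.

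The same count was made with the window moved along the chromosome in the direction of each gene, a comparison chosen after the values at the start sites were seen. Moved upstream, the window held an anchor for 40 of 84 members at 50 kb (47.6%, 37.3 to 58.2) and for 36 at 100 kb (42.9%, 32.8 to 53.5). Moved downstream, it did so for 29 at 50 kb (34.5%, 25.2 to 45.2) and for 45 at 100 kb (53.6%, 43.0 to 63.8). Each of these shares was below the 61.9% at the start sites. The same 84 genes were counted at each position, so overlap of the intervals does not measure the difference between positions. Over all coding genes the share hardly moved, between 55.0% and 55.7%. It lay above the members' interval at 100 kb upstream (55.1%) and at 50 kb downstream (55.4%). At the other shifts, as at the start sites, the share over all coding genes lay inside the members' interval.

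**Figure D2:**
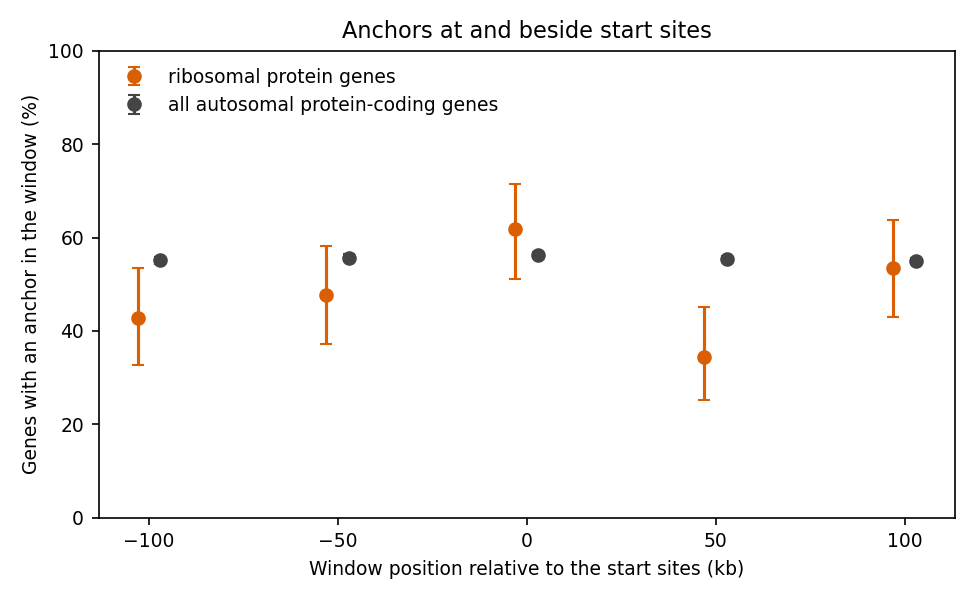
Share of genes with an anchor in a window of 10 kb around their start sites (0) or in the same window moved upstream (negative) or downstream (positive) by 50 or 100 kb. Points are shares and bars Wilson 95% intervals. The members ranged from 34.5% to 61.9%, with the highest share at the start sites, and all coding genes stayed between 55.0% and 56.2%.

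The members took part in 144 interactions with a median contact count of 22 (20 to 25, with a range of 12 to 110), and the median over all interactions near coding starts was 24. The median distance was 262.5 kb (195 to 340), compared with 245 kb, and 17 of the 144 spanned more than 1 Mb (11.8%, compared with 13.1%). A q-value under 1e-05 was given for 94 of the 144 (65.3%, compared with 66.7%). Of the 52 genes, 25 had a single interaction (48.1%, 35.1 to 61.3), and the share among coding genes with an interaction was 39.5%. The median number was 2 per gene in both.

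Between 50 and 100 kb the median contact count was 27 for 23 interactions of members and also 27 for all interactions near coding starts. Between 500 and 1000 kb it was 19 for 24 interactions of members, compared with 22, and 8 of the 24 were above that value. The other classes differed by at most 2 read pairs.

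**Figure D3:**
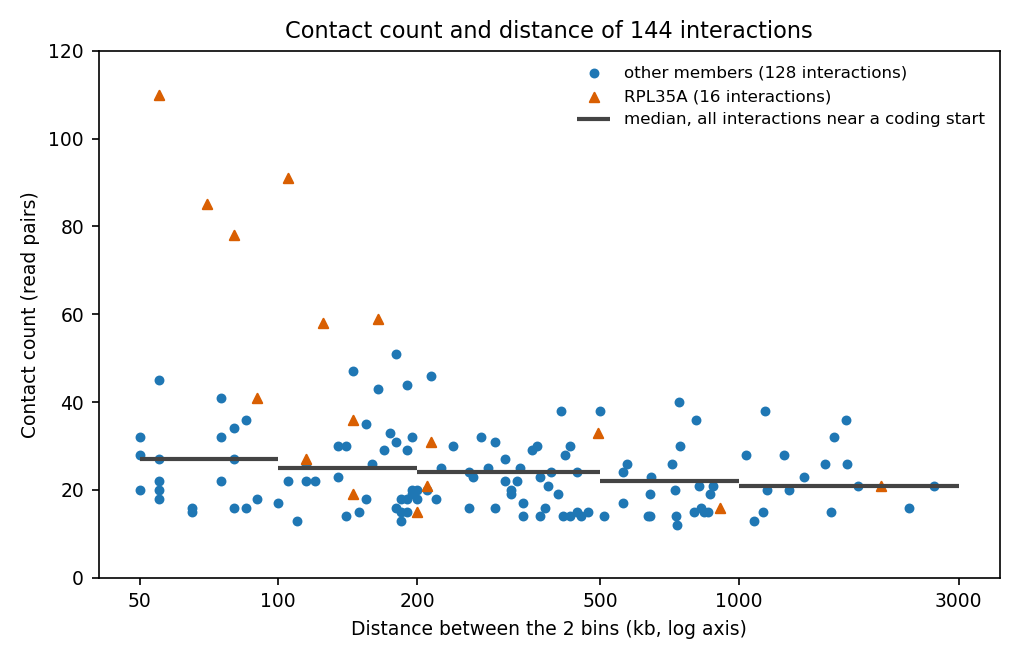
Contact count (read pairs) against the distance between the bins (kb, log axis) for the 144 interactions of ribosomal protein genes. Triangles are the 16 interactions of RPL35A, points the other 128, and horizontal lines the median of all interactions near coding starts in 5 distance classes. The 6 largest values were all of RPL35A, and no other member exceeded 51.

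RPL35A, a large-subunit gene on chromosome 3, stood apart from the other members. Its 16 interactions had contact counts of 110, 91, 85, 78, 59, 58, 41, 36, 33, 31, 27, 21, 21, 19, 16 and 15. The highest was 110 (90.4 to 133), at 55 kb, and the lowest was 15 (8.4 to 24.7), at 200 kb. Of the 16, 15 came from a single bin, chr3:197960001-197965000, which held the motif printed above. This bin lay 6438 bp from the nearest RPL35A start and held start sites of LMLN, which encodes a leishmanolysin-like peptidase, and of IQCG, so the interactions can be assigned to any of the 3 genes. The bin that lay 190 bp from an RPL35A start took part in 1 interaction, with a contact count of 31 to a bin near starts of RUBCN and FYTTD1.

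The partners of the busy bin lay on both sides. The strongest 3, at 55, 105 and 70 kb downstream, were in or beyond LMLN, and the fourth, with 78 (61.7 to 97.3), was 80 kb upstream in LRCH3. In all, 4 of the 15 partner bins held an HLF motif and 5 lay within 10 kb of another coding start, those of LRCH3 and FYTTD1 with RUBCN. A merged group that held 2 of these interactions had a sumCC, the sum of contact counts over neighboring significant bin pairs, of 444, the highest among the members. Without RPL35A the members had 128 interactions with contact counts from 12 to 51 and a median distance of 302.5 kb.

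**Figure D4:**
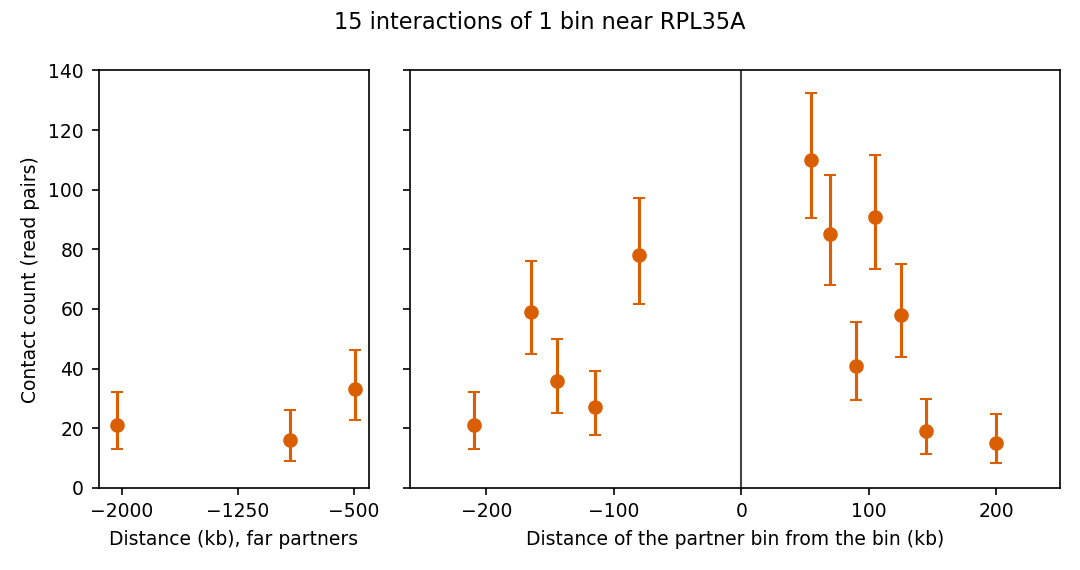
Contact count (read pairs) of the 15 interactions of the busiest bin near RPL35A against the distance of the partner bin (kb, negative towards lower coordinates, with 3 distant partners in the left panel). Bars are exact Poisson 95% intervals and the vertical line marks the bin. Of the 7 partners within 125 kb of the bin, 6 had contact counts of 41 or more, and of the 8 farther ones 7 had 36 or fewer, the other being 59 at 165 kb.

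After RPL35A, the large-subunit genes RPL14 and RPL37A had 8 interactions each. At RPL14, 7 came from a bin 6370 bp from a start, with contact counts of 30, 28, 26, 22, 20, 18 and 14, and 1 came from the bin of the start itself, with 32 (21.9 to 45.2) at 1605 kb in TRAK1. Although the 7-interaction bin held no HLF motif, 5 of its 7 partner bins did, and 1 of these lay 5551 bp from a start of CTNNB1, which encodes beta-catenin. At RPL37A the 8 interactions were spread over 6 bins. The highest contact counts were 41 (29.4 to 55.6) at 75 kb and 38 (26.9 to 52.2) at 410 kb, the latter to a bin that held starts of PECR and TMEM169. The value of 41 came from the bin that starts at 216535001, which took part in 3 interactions. This bin and that at 216520001 were more than 10 kb from the annotated gene start, at 216498825, and near a start site inside the gene. Counted from annotated gene starts alone, the members had 138 interactions in place of 144, the difference lying at RPL37A, RPL39L and RPS29.

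RPSA, RPL31, RPS29 and RPS19BP1 had 6 interactions each. RPSA, which encodes a small-subunit protein also known as the laminin receptor, had contact counts of 40, 24, 20, 19, 16 and 14. In 5 of them the RPSA bin held a start site and an HLF motif, and no other coding gene started within 20 kb of that bin. Its highest value was 40 (28.6 to 54.5) at 740 kb, to a bin in MYRIP with a motif of its own. Among the 12 bins of members with at least 3 interactions, those of RPSA, RPS29 and RPL23 were the 3 that held a start site of the member. At RPS29 and RPL23 this bin held the annotated gene start. At RPSA it held the start of another transcript, and the annotated gene start, at 39406716, lay in the adjoining bin, which held no HLF motif.

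RPS29, a small-subunit gene, had lower contact counts, of 24, 23, 17, 15, 14 and 14. The bin with 4 of them held a start of RPS29 and also one of LRR1, and their distances ran from 455 to 1385 kb, all above the members' median distance. The value of 17 came from a bin near a start site inside the gene, more than 10 kb from the annotated gene start. RPL31, a large-subunit gene, had values of 26, 25, 20, 15, 14 and 14, and 3 of the 6 partner bins lay over TBC1D8. RPS19BP1 had values of 51, 38, 32, 26, 23 and 14, of which 51 (38 to 67.1), to a bin that held a start of SYNGR1, was the highest of any member after RPL35A. All 6 came from a bin 2093 bp from a start of RPS19BP1 and 4397 bp from one of ATF4, so they can be listed for ATF4 as well.

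RPL19, RPS25, RPL35 and RPLP1 had 5 interactions each. RPL19, a large-subunit gene, had contact counts of 33, 23, 22, 19 and 14, and 4 of the 5 partner bins lay near other coding starts, those of CDK12, FBXL20 and C17orf98 with CWC25. RPS25, a small-subunit gene, had 27, 21, 16, 16 and 13, from a bin that held the start of CENATAC and lay 3044 bp from that of RPS25. RPL35, a large-subunit gene, had 36, 32, 22, 17 and 13 from 4 bins, and in 4 of the 5 the partner lay near NR6A1. These bins of RPL35 were mostly closer to starts of WDR38 or ARPC5L.

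Other members had few interactions with high contact counts. RPL4, a large-subunit gene, had 47 (34.5 to 62.5) to a bin in TIPIN at 145 kb, and RPS14, a small-subunit gene whose single-copy loss marks the 5q minus syndrome, had 46 (33.7 to 61.4) at 215 kb to a bin in CAMK2A. RPS7 had 45 (32.8 to 60.2) from the bin of its start at 55 kb, RPL32 had 44 (32 to 59.1) at 190 kb to a bin that held a start of IQSEC1, and RPL9 had 43 (31.1 to 57.9) at 165 kb in SMIM14. RPS19 had its 1 interaction at 1705 kb, with 36 (25.2 to 49.8), to a bin that held a start of XRCC1, a DNA repair gene. The intervals of these 6 values overlapped, so their order is not resolved.

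The longest interactions were those of RPL32 at 2650 kb (contact count 21, to a bin in IRAK2), RPL30 at 2335 kb (16), RPL35A at 2030 kb (21), RPS18 at 1815 kb (21) and RPL5 at 1720 kb (26). The shortest were at 50 kb, those of RPS3 with 32, RPS14 with 28 and RPS13 with 20. At 55 kb the 6 contact counts were 110 at RPL35A, 45 at RPS7, 27 at RPS25, 22 at RPS12, 20 at RPL28 and 18 at RPL14.

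In the following, the member bin is the bin near the member's start and the partner bin is the other one. Since 1 interaction had members at both ends, the 144 interactions gave 145 such pairs. The partner bin held an HLF motif in 57 of the 145 (39.3%, 31.7 to 47.4), and the share over all 37330 pairs near coding starts was 38.9%. The member bin did in 54 (37.2%, 29.8 to 45.3), and the share over all coding genes, 40.2%, lay inside this interval. Without RPL35A, left out after the data were seen, the members' share was 30.2% (23 to 38.6). That value is not a like comparison with 40.2%, which keeps its own bins with many interactions. Both bins held a motif in 16 pairs (11%, compared with 14.5%), and neither did in 50 (34.5%, compared with 35.3%). The bin of the gene start, whether or not it took part in an interaction, held a motif in 12 of 84 members (14.3%, 8.37 to 23.3), compared with 19.7%.

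In nearly every pair 1 bin took part in more interactions than the other. The partner bin was the busier one in 76 of the 145 (52.4%, 44.3 to 60.4), compared with 47.0%, and the member bin in 68 (46.9%), compared with 50.9%. For 36 of the 52 genes (69.2%) the partner was the busier bin in every interaction, compared with 65.8% of coding genes with an interaction. For 4 genes the member bin was busier throughout, 11 genes had both kinds, and in 1 gene the bins were equal. Without RPL35A the member bin was the busier one in 41.1% of the pairs.

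The motif was found more often in the busier bin. Where the partner was busier, it held a motif in 38 of the 76 pairs (50%, 39.0 to 61.0). The member bin did in 14 of these pairs (18.4%, 11.3 to 28.6). Where the member bin was busier, it held a motif in 40 of 68 pairs (58.8%, 47.0 to 69.7). The partner bin did in 19 of these pairs (27.9%, 18.7 to 39.6). A bin enters once for each of its interactions, that near RPL35A 15 times, so these intervals are too narrow. Without RPL35A the share for busier member bins came to 47.2%. Over all coding genes the busier bin held a motif in 52.5% and 53.8% and the quieter one in 26.1% and 26.7%, so the members followed the pattern of all coding genes. Of the 84 distinct member bins, 12 took part in at least 3 interactions, and 7 of the 12 held a motif (58.3%, 32.0 to 80.7), compared with 13 of the other 72 (18.1%, 10.9 to 28.5). The corresponding shares for all coding genes were 48.2% and 25.7%.

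The 5 bins of members with at least 3 interactions and no motif were those of RPL14, RPL19, RPL28, RPL31 and RPL41. At RPL28 and RPL41, large-subunit genes with 4 interactions each, starts of UBE2S and PA2G4 were closer to the bin, and all 8 partner bins lay near other coding starts. The RPL28 values were 35, 24, 22 and 20, and the RPL41 values 30, 29, 15 and 14.

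Motifs in busier partner bins are printed next for the 5 interactions of members with the highest contact counts among those with a motif in the busier partner bin (ties by P value), since these are the cases in which the motif lay at the far end. Each is given as before, on hg38 with 20 bases on each side and the motif in capitals.
RPS14 partner bin, chr5:150227153-150227200, minus strand: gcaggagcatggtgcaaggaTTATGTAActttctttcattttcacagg
RPL32 partner bin, chr3:13021748-13021795, plus strand: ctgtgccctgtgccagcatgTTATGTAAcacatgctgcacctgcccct
RPL35 partner bin, chr9:124767777-124767824, minus strand: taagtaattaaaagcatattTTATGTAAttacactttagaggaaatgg
RPS19 partner bin, chr19:43562938-43562985, plus strand: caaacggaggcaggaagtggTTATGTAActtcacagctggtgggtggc
RPL14 partner bin, chr3:42061185-42061232, plus strand: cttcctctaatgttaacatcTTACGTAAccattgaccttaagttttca

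All 5 lay in introns, those of CAMK2A (RPS14), IQSEC1 (RPL32), NR6A1 (RPL35), XRCC1 (RPS19) and TRAK1 (RPL14). The site of the RPL14 partner was the palindromic form. The 5 partner bins took part in 7, 4, 9, 9 and 3 interactions. The contact counts with the members were 46, 44, 36, 36 and 32.

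The start site of the member was inside the bin in 34 of the 147 combinations of a member and an interaction (23.1%, 17.0 to 30.6). The share over all coding genes, 30.9%, lay above this interval. Without RPL35A, left out after the data were seen, the members came to 34 of 131 (26%, 19.2 to 34.1), an interval that held 30.9%. That is not a like comparison, since 30.9% keeps its own bins with many interactions. The share of the mitochondrial ribosomal protein genes was 37.7% (30.2 to 45.8). In 92 of the 145 pairs the member had the closest coding start to its bin (63.4%, 55.4 to 70.8). No such share is given here for all coding genes, so whether this value is usual cannot be told. In the other pairs another gene started closer, as at RPL35A, RPL28, RPL41 and RPS25, and the interaction could be listed for that gene as well. Of these pairs, 15 came from the 1 busy bin near RPL35A. Of the 55 members with another coding start within 10 kb of their own, 34 had an interaction (61.8%, 48.6 to 73.5), and of the 29 without one 18 did (62.1%, 44 to 77.3).

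The partner bin lay within 10 kb of another coding start in 76 of the 145 pairs (52.4%, 44.3 to 60.4), compared with 42.9% over all coding genes, a value below the interval. Without RPL35A it did so in 54.3% (45.7 to 62.6). The partner bin took part in at least 10 interactions in 14 of the 145 pairs (9.66%, 5.84 to 15.6), and the 14.2% over all coding genes lay inside the interval. Counted over distinct partner bins, 14 of 143 did (9.79%, 5.92 to 15.8), compared with 4.14% of the 25016 distinct partner bins of all coding genes, where a bin with many interactions counts once however many of its interactions are listed. Counting distinct bins took the members from 145 pairs only to 143 bins, but all coding genes from 37330 pairs to 25016 bins. The members' share therefore stayed weighted by interactions, and 9.79% and 4.14% are not a like comparison. The like comparison is that over pairs, 9.66% and 14.2%. The partner lay upstream of the member in 69 of the 145 (47.6%, 39.6 to 55.7), and no share over all coding genes is given here for this. The intervals treat the pairs as independent, and as interactions share bins they are too narrow.

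A single interaction joined members at both ends. It linked the bin chr22:39330001-39335000, 9612 bp from a start of RPL3, the gene of a large-subunit protein near the peptidyl transferase center, with the bin of RPS19BP1 at chr22:39525001-39530000, with a contact count of 32 at 195 kb. A start of ATF4 lay 4397 bp from the latter bin. RPS19BP1 is not a ribosomal protein gene, so no interaction joined canonical members. A further 2 interactions had 2 members at the same end, RPS10 with RPS10-NUDT3 and RPS2 with RPL3L.

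Ribosomal protein genes have many processed pseudogenes in the genome. Of the 145 partner bins, 0 held an annotated ribosomal protein pseudogene, which allows a share of up to 2.58% (Wilson), and the share over all pairs near coding starts was 0.453%. The bins of an interaction shared between 0 and 169 sequences of 31 bases (31-mers), and 0 of the 144 interactions reached the 500 taken here as near-identical. Of the 27 members with a snoRNA annotated inside them, 15 had an interaction (55.6%, 37.3 to 72.4), and of the 57 without, 37 did (64.9%, 51.9 to 76.0), a difference smaller than the counting error.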

How the data were processed

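HiChIP of TCF3::HLF was carried out in HAL-01 cells without wild-type TCF3, with 2 replicates of a single condition. According to the methods, the authors trimmed reads with Trim Galore 0.6.6 (version per the submitters' processing notes), merged the replicates, aligned to hg38 with BWA-MEM, extracted pairs with pairtools without its dedup step, called peaks with MACS2 and ran FitHiChIP (version not given in the sources used here) on 5-kb bins 50 kb to 3 Mb apart at a q-value under 0.01, with nearby contacts merged. The deposited contact counts and their sums over merged groups (sumCC) are raw read-pair counts. The p-values and q-values deposited by the authors come from the FitHiChIP background, and the fraction that the authors deposited per merged group was not used in any comparison.

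Start sites were those of all transcripts in GENCODE 44 (hg38). The members and gene lists were chosen with earlier results of these data known. Genes named were those with the most interactions (10), the largest contact counts, sumCC and smallest P values (5 each), the longest and shortest distances (5 each), start-site bins with a motif, interactions joining members, the stalk genes, RPSA, the Diamond-Blackfan list and the non-canonical members. RPS7, RPL9, RPS19, RPL28, RPL41, RPS18, RPL39L and some members without an interaction were named in addition, after their values were seen. Shares have Wilson and single counts exact Poisson 95% intervals, and medians order-statistic intervals. No test was run. Counting code was tested on simulated data. Alternatives were other windows, q-value and contact-count limits, distances up to 1 Mb, canonical members, merged bin ranges, single motif forms and, added after seeing the data, leaving out RPL35A. Intervals were computed with SciPy 1.17.1 and tables with pandas 2.3.3 and NumPy 2.4.6 in Python 3.11.15, sequences were read with samtools 1.23.1 and pyfaidx 0.9.0.4, and figures were drawn with matplotlib 3.10.9. No table of protein sequences was used here. Some members enter the counts and are not reported here by name.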

Additional observations from a re-analysis of the deposited data

How the results depend on the processing

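No paired analysis was possible because the replicates of the single condition were merged before deposit, and for the same reason leaving out each replicate in turn could not be run. With the start site required inside the bin, 24 members had 34 interactions with a median distance of 387.5 kb. A 5-kb window gave 93 interactions, and a 20-kb window gave 2 interactions joining members, while canonical members alone gave 0. A q-value under 1e-05 left 94 interactions with a median contact count of 27.5, and a contact count of at least 20 left 92 with a median of 28, since both remove weak interactions. Members with no other coding start nearby (29 genes) gave 18 genes and 53 interactions. The share of partners near another coding start was 19.3% when the start had to be inside the partner bin, and that of partner bins with a motif was 5.52% for TTACGTAA alone. Under the other settings run, members with an interaction ranged from 43 to 66, interactions from 119 to 213, median contact counts from 20 to 25, median distances from 210 to 302.5 kb and partner bins with a motif from 34.4% to 45.8%. Counts of this depth do not resolve differences between single interactions of similar contact count.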

Other observations

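RPSA and RPL14 lie about 1 Mb apart on chromosome 3, and both had interactions with bins over MYRIP, a gene between them that encodes a myosin and Rab interacting protein. From RPSA these had contact counts of 40, 24 and 19, and from RPL14 20 and 14. The RPSA partner bin that starts at 40150001 adjoins the RPL14 partner bin that starts at 40145001, and the partner bins that start at 39815001 and 39825001 lie next to each other with 1 bin between them. No listed interaction joined RPSA to RPL14. This pair was noticed after the values were seen.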
